A study of Mus musculus with 2 samples.

Results

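The Dlk1, Meg3 and Dio3 cluster is an imprinted domain of mouse chromosome 12, and its H3K4me3 peaks are described here in fetal male germ cells. The members are the genes Dlk1, Meg3, Rtl1 and Dio3, 4 of 49943 annotated genes. Peaks were taken from 10 kb before Dlk1 to 10 kb after Dio3, chr12:109442485-110291097 in mm10, an interval of 849 kb. It held 29 of the 135064 peaks of the library.

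The study, part of work on TET1 and imprinting control regions, profiled H3K4me3, a histone mark found at active and poised promoters, by CUT&RUN, in which an antibody brings a nuclease to its target and the released DNA fragments are sequenced. The cells were Oct-GFP+ prospermatogonia, male germ cells sorted on a GFP reporter at E17.5, and 130000 cells went into the assay. There was 1 H3K4me3 library without a replicate, and values of the matched IgG library were not used here. The labels name no genotype, strain or number of embryos, and the peaks do not separate the maternal from the paternal chromosome. Markers for a check of the label were chosen with earlier results of these data known. Of 10 markers of male germ cells, 8 carried a peak at a gene end, with Nanos2 and Nanos3 the exceptions. So did 5 of 6 Sertoli cell markers, 2 of 6 Leydig cell markers and 3 of 6 endothelial and blood markers, against 74.5% of all protein-coding genes. A promoter mark does not measure RNA, and the part of other cells in the peaks below was not tested.

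The cluster is known to work by parent of origin, and expression by parent was not measured in these germ cells. Where its imprints are in place, the protein-coding genes Dlk1, Rtl1 and Dio3 are expressed from the paternal chromosome. The noncoding RNAs Meg3, Rian and Mirg are then expressed from the maternal chromosome, with many microRNAs and small nucleolar RNAs in their transcripts. A control region between Dlk1 and Meg3 becomes methylated in male germ cells before birth and is unmethylated in oocytes. The enzymes that set DNA methylation in germ cells bind histone H3 poorly where lysine 4 is methylated, which makes the position of H3K4me3 in this cluster a question of interest.

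Promoter sequences are shown for 5 genes because the peaks divide them: those of Dlk1, Meg3 and Dio3 were overlapped by a peak, that of Dio3os lay between peaks, and that of Rian lay far from any. Each holds the 250 bases before the start site and the first 50 bases of the transcript, 5′ to 3′ on the gene's strand, from RefSeq on GRCm38.p6, the assembly of mm10. The table used held no promoter of Rtl1. Capitals mark matches, on either strand, to the TATA box (TATAAA), the CCAAT box (CCAAT), the cyclic AMP response element (TGACGTCA), the GC box (GGGCGG) and the ZFP57 hexamer (TGCCGC).
Dlk1, chr12:109452573-109452872, plus strand: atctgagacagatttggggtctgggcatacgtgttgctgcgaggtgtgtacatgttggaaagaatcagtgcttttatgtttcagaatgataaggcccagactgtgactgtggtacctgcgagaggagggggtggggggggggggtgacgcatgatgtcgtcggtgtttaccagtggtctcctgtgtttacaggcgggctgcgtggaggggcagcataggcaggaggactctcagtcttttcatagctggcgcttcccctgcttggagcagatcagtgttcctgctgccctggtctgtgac
Meg3, chr12:109540746-109541045, plus strand: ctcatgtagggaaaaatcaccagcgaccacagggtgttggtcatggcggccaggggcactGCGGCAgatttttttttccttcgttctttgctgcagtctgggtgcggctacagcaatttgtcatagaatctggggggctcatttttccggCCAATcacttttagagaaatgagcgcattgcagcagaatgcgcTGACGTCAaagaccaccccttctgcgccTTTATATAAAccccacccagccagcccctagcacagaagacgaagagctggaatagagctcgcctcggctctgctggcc
Dio3, chr12:110278980-110279279, plus strand: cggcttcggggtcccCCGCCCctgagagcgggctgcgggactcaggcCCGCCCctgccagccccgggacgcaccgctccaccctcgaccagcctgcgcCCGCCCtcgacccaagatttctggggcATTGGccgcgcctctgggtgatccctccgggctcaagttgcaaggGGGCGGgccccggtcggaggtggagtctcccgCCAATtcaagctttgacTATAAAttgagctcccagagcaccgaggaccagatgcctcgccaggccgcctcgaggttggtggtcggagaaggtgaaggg
Dio3os, chr12:110278019-110278318, minus strand: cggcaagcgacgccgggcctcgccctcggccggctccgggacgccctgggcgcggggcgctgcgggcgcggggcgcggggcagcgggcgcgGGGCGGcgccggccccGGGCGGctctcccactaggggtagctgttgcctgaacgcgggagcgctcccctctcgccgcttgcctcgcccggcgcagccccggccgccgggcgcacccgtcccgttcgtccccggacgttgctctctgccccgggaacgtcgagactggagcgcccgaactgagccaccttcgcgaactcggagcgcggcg
Rian, chr12:109603695-109603994, plus strand: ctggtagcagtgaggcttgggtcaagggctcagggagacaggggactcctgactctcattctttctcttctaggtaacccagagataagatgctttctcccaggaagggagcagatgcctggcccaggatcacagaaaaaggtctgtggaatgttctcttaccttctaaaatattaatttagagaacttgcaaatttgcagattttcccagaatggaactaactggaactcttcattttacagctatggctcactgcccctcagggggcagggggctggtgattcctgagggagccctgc

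The promoters differed in content. The Meg3 promoter held a TATA box match whose first base lay 25 bases before the start, overlapped by one on the other strand. It also held a cyclic AMP response element 57 bases before the start, a CCAAT box and 1 ZFP57 hexamer. TATAAA occurred in 13.6% of 32851 promoters of the same length, TGACGTCA in 1.79% and TGCCGC in 11.6%. The Dio3 promoter held a TATA box match 31 bases before the start, 2 CCAAT boxes and 4 GC boxes, while CCAAT occurred in 37.4% of promoters and GGGCGG in 35.7%. Dio3os held 2 GC boxes, and Dlk1 and Rian held none of these letters in this window. CpG dinucleotides numbered 9 in Dlk1, 13 in Meg3, 25 in Dio3, 53 in Dio3os and 0 in Rian. A match is a description of the letters and does not show that a factor binds.

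Of the 4 members, Dlk1, Meg3 and Dio3 carried a peak within 1000 bp of an annotated gene end, and Rtl1 carried none. By this rule 74.5% of 21887 protein-coding genes and 44.8% of 12727 long noncoding RNA genes were marked, so 3 of 4 lies near the background. With every gene end moved by 100 kb, 23.9% and 20.6% still met a peak. No start site was given for Rtl1. At the starts of Dlk1 and Dio3 and the first start of Meg3, a peak lay within 1000 bp. This held for 71.5% of protein-coding starts and 37.9% of starts of long noncoding RNAs. A later start of Meg3, described below, had no such peak. The 300-base promoters shown for Dlk1, Meg3 and Dio3 were overlapped by a peak too. So were 64.7% of promoters of protein-coding genes and 28.9% of those of long noncoding RNAs. The fold below is the authors' value at the summit of a peak, fragment pileup over local background, each plus 1. Both were recovered as numbers of fragments, and intervals are 95% exact Poisson intervals, which cover counting error of the pileup only. Restricted to peaks of fold 5 or more, Dlk1 was the only member marked, and 57.4% of protein-coding genes were.

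Dlk1 encodes a transmembrane protein of the Delta-like family that restrains differentiation. A peak of 525 bp, chr12:109452763-109453287, ran from -60 to 464 bp relative to the start and took in 110 of the 300 promoter bases shown. Its summit, 95 bp after the start, had 45 fragments (32.8 to 60.2) over a background of 7.99, a fold of 5.11 (3.76 to 6.81). A neighbouring peak of 549 bp, with its summit 961 bp after the start, had 30 fragments and a fold of 3.63. Farther into the gene, 6932 bp after the start, a peak of 973 bp had 37 fragments (26.1 to 51.0) and a fold of 8.37 (5.96 to 11.5). The internal peak was higher in fold and lower in pileup than the start peak, and both pairs of intervals overlapped. Its background was 3.54 fragments, below the 7.99 at the start.

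Meg3 is a noncoding RNA expressed, where imprints are in place, from the maternal chromosome. Its promoter is the first of the long run of maternal transcripts. A peak of 315 bp, chr12:109540861-109541175, reached from -135 to 179 bp relative to the start and covered 185 of the 300 promoter bases. It had 34 fragments (23.5 to 47.5) over a background of 10.2, and its fold was 3.12 (2.19 to 4.33). Peaks 1310 and 2085 bp after the start had 33 and 43 fragments and folds of 2.95 and 3.82. A further peak of 918 bp, 9009 bp into the gene, had 41 fragments (29.4 to 55.6), a background of 3.62 and a fold of 9.09 (6.59 to 12.3). The fold intervals of the start and internal peaks of Meg3 did not overlap, whereas their pileup intervals did. A later start of Meg3, 4402 bp downstream, had no peak within 1000 bp, and its nearest peak was 2192 bp away.

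Dio3 encodes the type 3 deiodinase, which inactivates thyroid hormone. A peak of 176 bp, chr12:110278944-110279119, had its summit at -198 bp from the start with 39 fragments (27.7 to 53.3), a background of 13.6 and a fold of 2.74 (1.97 to 3.72). After a break of 97 bp a peak of 554 bp followed, with its summit 332 bp after the start, 37 fragments (26.1 to 51.0) and a fold of 2.60 (1.85 to 3.56). Of all peaks, 98.96% had a fold at or above that of the latter, so these are among the lowest folds of the list. By pileup they stood near the middle of peaks at protein-coding starts, meaning the 18416 peaks within 1000 bp of such a start. Of these, 51.6% and 59.9% had as many fragments. A peak 3355 bp after the start had 40 fragments and a fold of 3.16.

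Dio3os is a noncoding RNA transcribed away from Dio3, from a start 1162 bp before that of Dio3. Its promoter, with 53 CpG, was overlapped by no peak, although 86.9% of promoters with over 30 CpG were. A peak of 691 bp ended 97 bp inside the transcript, chr12:110277281-110277971, with 46 fragments (33.7 to 61.4) and a fold of 3.33 (2.45 to 4.41). The next began 972 bp later, at Dio3, so the promoter lay in the break between peaks. Whether the base composition of this stretch, 80% G and C, lowered its coverage was not tested. Joined over gaps of up to 1000 bp, the 3 peaks at Dio3os and Dio3 made a domain of 2490 bp, and 1.56% of 105738 domains were as wide.

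**Figure D1:**
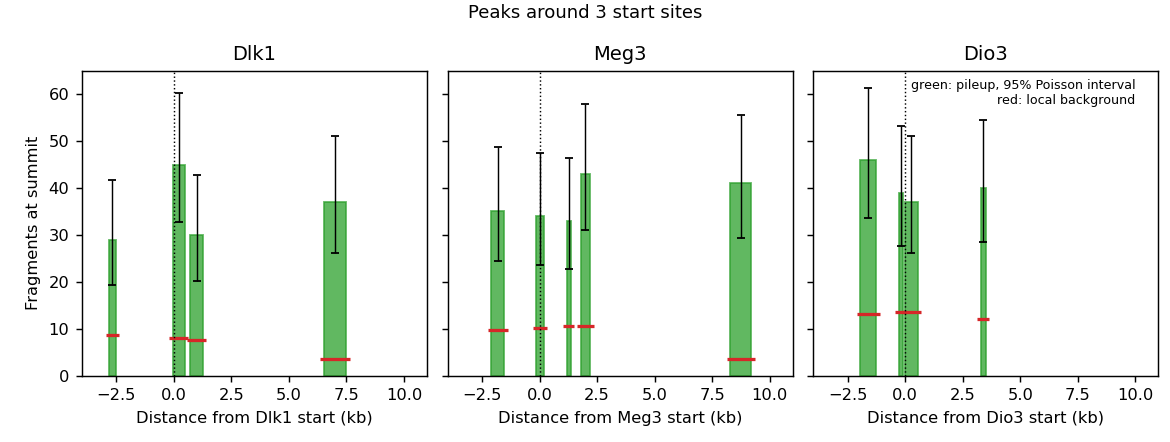
Peaks around the starts of Dlk1, Meg3 and Dio3, by distance from the start in kb. Green boxes span each peak and rise to the summit pileup in fragments, with 95% Poisson intervals, and red lines show the local background. Start peaks reach 34 to 45 fragments over 7.99 to 13.6, and the internal peaks of Dlk1 and Meg3 reach 37 and 41 over 3.54 and 3.62.

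Local backgrounds around these starts were high. The 11 peaks within 5 kb of the starts of Dlk1, Meg3 and Dio3, those at Gm34081 and Dio3os included, had 29 to 46 fragments. Their median was 37, and that of peaks at protein-coding starts, a narrower window of 1000 bp, was 39. Backgrounds of the 11 ran from 7.54 to 13.6 fragments, against a median of 6.27 at protein-coding starts and 3.002 over all peaks. Peaks near the same start lie within 10 kb of one another, so the 11 backgrounds are not independent. Folds of the 11 ran from 2.60 to 5.11, against medians of 5.37 and 5.997. The backgrounds have the size of fragment counts over 10 kb of the H3K4me3 library, 862 at Dio3, 646 at Meg3 and 506 at Dlk1. The lowest background equals 134. Of peaks at protein-coding starts, 2.52% had a background as high as at Dio3, 10.1% as high as at Meg3 and 24.6% as high as at Dlk1. The start peaks differed in rank among peaks at protein-coding starts. At Dlk1 55.2% of these had as high a fold and 25.1% as many fragments. At Meg3 the shares were 91.8% and 70.4%, so both fold and pileup were below the middle. At Dio3 96.7% and 97.9% had as high a fold as its 2 peaks, and their pileups were near the middle, as given above.

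**Figure D2:**
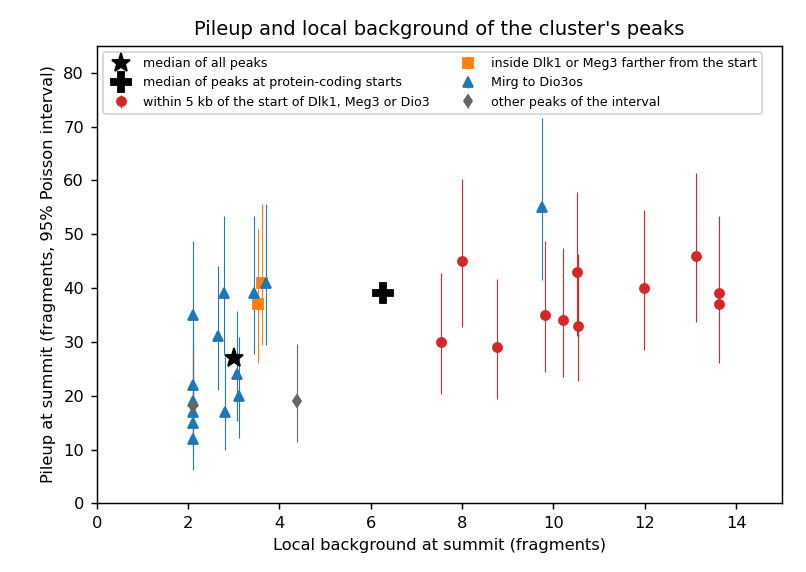
Summit pileup (vertical, fragments, 95% Poisson interval) against local background (horizontal, fragments) for the 29 peaks of the cluster, with medians of all peaks and of peaks at protein-coding starts. Peaks near the starts of Dlk1, Meg3 and Dio3 lie to the right, between 7.54 and 13.6, at pileups of 29 to 46.

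Rtl1 encodes a protein derived from a retrotransposon gag and pol gene and is needed in the placenta. No peak overlapped its annotated extent, chr12:109564900-109604418, which begins inside Meg3 and ends inside Rian. Of all protein-coding genes, 81.9% met a peak somewhere in the gene. The nearest peak to Rtl1 lay 14701 bp from its lower end and 8671 bp from its upper end. Among 10 other gag-derived genes, Peg10, Ldoc1 and members of the Rtl family, all had a peak at an end, with folds from 4.06 at Peg10 to 9.59 at Rtl9, against 74.5% of all protein-coding genes marked at an end. The lists of related genes were chosen with earlier results of these data known, and no test was made.

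MicroRNAs of the maternal transcripts lie opposite Rtl1 and are known to cut its RNA. Of 58 microRNA hairpins in the interval that matched RefSeq, 15 lay within the Rtl1 extent, 13 of them on the plus strand. The mature sequences of 5 known antisense microRNAs are shown with those of miR-1247, whose gene was the only microRNA gene of the interval with a peak within 1000 bp. Capitals mark the seed, bases 2 to 8.
miR-431-5p: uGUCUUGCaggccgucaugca
miR-433-3p: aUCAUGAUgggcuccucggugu
miR-127-3p: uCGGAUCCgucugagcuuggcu
miR-434-3p: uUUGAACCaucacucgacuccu
miR-136-5p: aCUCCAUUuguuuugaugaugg
miR-1247-5p: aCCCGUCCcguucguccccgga
miR-1247-3p: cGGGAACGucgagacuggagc

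The 7 seeds printed differ from one another. Hairpins Mir431, Mir433, Mir127, Mir434 and Mir136 lay 17701 to 22552 bp from the nearest peak. Of 61 microRNA genes annotated in the interval, 1 was marked at an end, Mir1247, against 23.0% of 1228 microRNA genes and 13.4% with the ends moved by 100 kb. No hairpin was itself overlapped by a peak, against 12.9% of microRNA genes. That hairpin lies in the Dio3os promoter, 77 bp from the peak inside Dio3os. Over the 58 hairpins the median distance to a peak was 42.3 kb and the largest 70.3 kb. None of the 19 small nucleolar RNA genes was marked, against 20.2% of 1340 and 11.6% with the ends moved by 100 kb, and none was overlapped, against 5.60%. Nor was any of 4 pseudogenes marked, against 36.3%. These genes lie close together in arrays, so they are not independent of one another.

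Rian and Mirg, noncoding RNAs that host part of these small RNAs, had no peak at either end. Rian held 1 peak of 257 bp, 9247 bp after its start, with 18 fragments (10.7 to 28.4) and a fold of 6.10 (3.75 to 9.46). At Mirg the nearest peak to the start was 44456 bp away. The Rian promoter has 0 CpG, and 12.9% of promoters with 0 to 5 CpG were overlapped by a peak. The Mirg promoter has 10 CpG, a count class, 6 to 10, in which 55.2% were. Dlk1, with 9 CpG, falls in the same class as Mirg and was overlapped. The classes of Meg3, 11 to 20 CpG, and of Dio3, 21 to 30, had shares of 92.2% and 96.1%. From the end of Meg3 to the end of Mirg, over 178 kb, peaks covered 0.145% of the sequence, against 3.27% of the autosomes, X and Y.

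**Figure D3:**
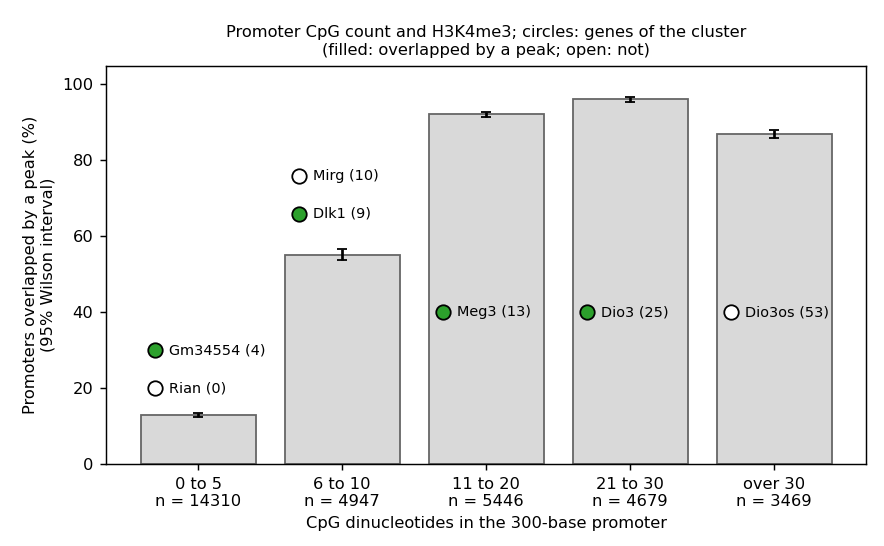
Share of 300-base promoters overlapped by a peak (bars, %, with 95% Wilson intervals) by number of CpG, over 32851 promoters. Circles place promoters of the cluster in their class, with the CpG count in brackets and a height of no meaning; Meg3, Dio3, Dlk1 and Gm34554 are overlapped, and Rian, Mirg and Dio3os are not.

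The stretch between Dlk1 and Meg3 holds the intergenic control region and is 77.7 kb long. Peaks covered 0.914% of it, against 1.89% between Mirg and Dio3os, 1.99% of the interval and 3.27% of the autosomes, X and Y. Only 2 peaks overlapped it, a count with a wide counting error, and its difference from the background was not tested. They were the Meg3 start peak and a peak of 575 bp, chr12:109538884-109539458. The latter had its summit at -1691 bp from the Meg3 start, with 35 fragments (24.4 to 48.7) over a background of 9.81 and a fold of 3.33 (2.35 to 4.59). From the internal peak of Dlk1 to that peak no peak was called for 78.6 kb, which took in 97.3% of the stretch. Of 134656 gaps between neighbouring peaks, with a median of 10.1 kb, 3.80% were as long, and such gaps held 23.5% of the sequence. A gap in the list means that no peak was called there, and it does not show that H3K4me3 was absent. The position of the methylated region within the stretch was not given in the references used here, so no value is given for it alone.

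A noncoding RNA, Gm34081, runs through this stretch on the minus strand, from a start 847 bp before that of Meg3. Its annotated upper end was marked by the peak before Meg3, whose summit lay 459 bp inside the transcript from the nearest of its 5 starts. Its 3 starts within the gap, at -4264, -14727 and -23775 bp from the Meg3 start, had no peak within 1000 bp. Their promoters hold 3, 6 and 2 CpG, against 11 at each of the starts near Meg3. Gm34017, with a start at -31434 bp from that of Meg3, had no peak either.

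At another locus with a paternally methylated control region, 3 peaks overlapped the 72.6 kb between H19 and Igf2. The first lay 25 bp from the H19 extent, with 41 fragments and a fold of 8.62 (6.25 to 11.6). The others lay 32502 and 33267 bp from H19, with folds of 8.99 and 4.82. The pileup of the peak beside H19, 41, falls inside the counting interval of the Meg3 start peak, 23.5 to 47.5. Their fold intervals, 6.25 to 11.6 and 2.19 to 4.33, do not overlap, and the backgrounds were 3.87 and 10.2 fragments. Peaks per Mb were 80.9 (37.0 to 154) at H19 and Igf2, 65.5 (29.9 to 124) at Rasgrf1 and 145 (90.7 to 219) at Zdbf2 and Gpr1. They were 34.2 (22.9 to 49.1) in the Dlk1, Meg3 and Dio3 cluster, 45.7 on chromosome 12 and 49.8 on the autosomes, X and Y. The intervals differ in length and gene content, and the Poisson intervals take peaks as independent.

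Between Mirg and Dio3os, over 526 kb with no protein-coding gene, lay 14 of the 29 peaks. Their folds ran from 4.18 to 11.6 and their pileups from 12 to 55 fragments. The highest fold of the cluster lay here, 11.6 (8.15 to 16.0), at chr12:109779437-109779985, 44856 bp beyond the Mirg start. That peak had 35 fragments (24.4 to 48.7) over the lowest background, 2.11, and 1.55% of all peaks had as high a fold. This background is a floor shared by 31.1% of the solved peaks and by 7 of the 29 here. By pileup, 32.7% of all peaks had as many fragments. A peak at chr12:109987950-109988652 followed with 39 fragments and a fold of 10.54 (7.57 to 14.3). The cluster had 7 peaks of fold 8 or more, of which 5 were in this stretch and the other 2 were the internal peaks of Dlk1 and Meg3. The lowest of these 7 folds was 8.37, and 18.0% of all peaks had a fold as high. The stretch makes up 526 of the 849 kb of the interval. In pileup the peak of highest fold equalled the peak before Meg3, at 35 fragments each.

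The widest peak of the cluster was also in this stretch, 2629 bp long, at chr12:110187120-110189748. Of the whole list 20 peaks were as wide, this one included, and the median was 572 bp. It had 55 fragments (41.4 to 71.6), the highest pileup of the 29 peaks, over a background of 9.75, and a fold of 5.21 (3.95 to 6.75). Only 1.99% of all peaks had as many fragments. The peak ended 89.5 kb before Dio3 and overlapped no annotated gene. The nearest start was that of the noncoding RNA Gm34785, with the summit at -4144 bp, upstream of it.

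Of the noncoding RNA genes in this stretch, Gm34554 and Gm34719 were marked at an end. Gm34554 had peaks at its start, with 12 and 22 fragments and folds of 4.18 and 7.39. Gm34719 was marked only at its 3′ end, by a peak of 191 bp with 17 fragments (9.90 to 27.2) and a fold of 5.78. Over the interval 5 of 16 long noncoding RNA genes were marked, against the 44.8% of all such genes given above, and 6 held a peak, against 54.3%. Of the 29 peaks, 9 had the summit within 1000 bp of an annotated start, against 14.8% of all peaks.

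**Figure D4:**
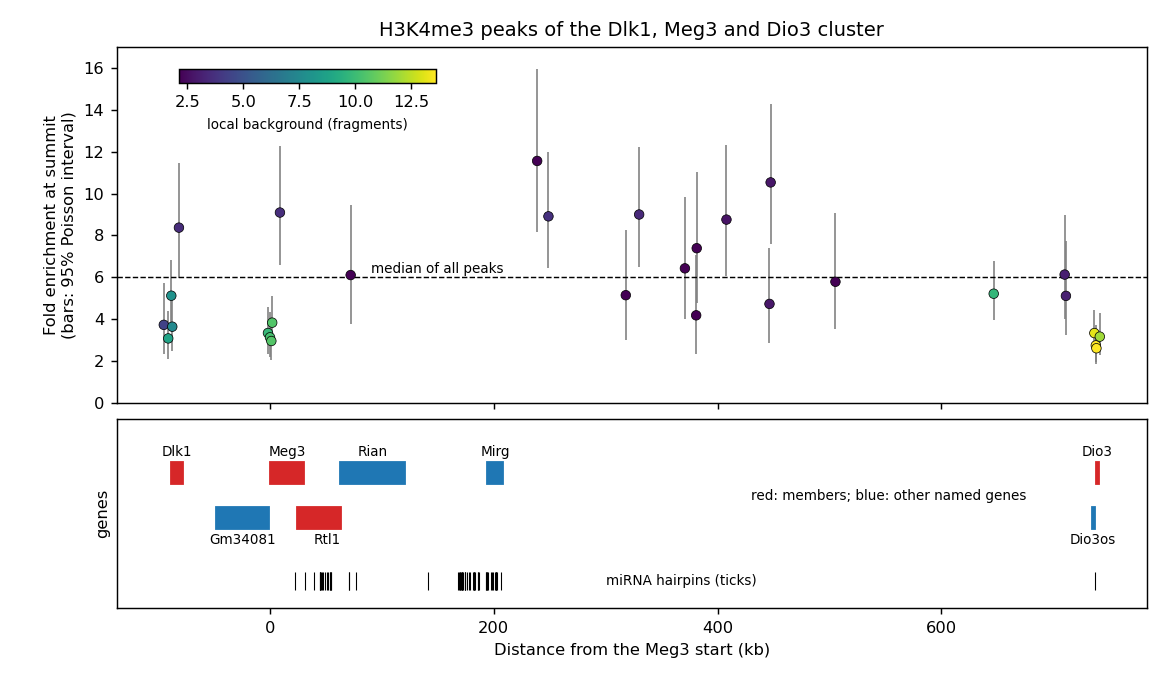
Fold enrichment at the summit of each of the 29 peaks (vertical, with 95% Poisson intervals) by distance from the Meg3 start in kb, coloured by local background in fragments. Gene extents and microRNA hairpins are drawn below. Peaks within 5 kb of the starts of Dlk1, Meg3 and Dio3 have folds of 2.60 to 5.11, the internal peaks of Dlk1 and Meg3 reach 8.37 and 9.09, and the highest fold, 11.6, lies beyond Mirg.

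The longest gaps between peaks lay over the maternal transcripts and the intergenic sequence. From the peak inside Rian no peak was called for 166 kb, through the rest of Rian and all of Mirg. Only 0.547% of gaps were as long, and such gaps held 6.27% of the sequence. The gap before it, of 62.9 kb from the internal peak of Meg3 to the peak in Rian, took in the Rtl1 extent. For that length the shares were 5.91% of gaps and 30.9% of the sequence. A gap of 141 kb lay before the widest peak, with 0.903% of gaps as long and 8.97% of the sequence in them. How much of these stretches is sequence to which reads cannot be assigned was not tested.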

How the data were processed

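H3K4me3 was profiled in 1 library. Builds mm10 and sacCer3 stand in the submitters' processing notes. For trimming and alignment these notes list Trim Galore and Bowtie2 2.5.0. SAMtools 1.16.1 is listed beside bedtools 2.27.1, and the peak caller MACS2 2.1.0 beside deepTools 3.5.1, all without settings. The authors deposited a peak list with a fold ratio at the summit, −log10 p and q, and a score, which was left aside. The labels' protocols state no total depth.

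A pileup and a local background were solved from the fold ratio, taken as 1 more than the pileup divided by 1 more than the background, and the −log10 p, taken as a Poisson tail. Only whole pileups were tried, and for 135053 of 135064 peaks the best one met the −log10 p within 0.0001. The 93075 backgrounds above the lowest, 2.11, lay within 0.0144 of a whole number of fragments per 10000 bp, in steps of 0.0158. They were read as counts of the H3K4me3 library itself, and a part of IgG was not tested.

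A gene was marked where a peak of −log10 q at least 2, which all peaks reach, met the 1000 bp either side of an end in RefSeq GRCm38.p6. Start sites came from the promoter table. With 1 library no test was made. Members and lists were chosen with earlier results of these data known. Named were all members, other genes of the interval that met a peak, the 5 protein-coding neighbours on each side, and related genes. Starts between Dlk1 and Meg3 and genes within named gaps were added after their values were seen. Alternatives covered thresholds, windows, overlaps and flanks. On simulated data, peaks were planted inside the call window at ends of isolated protein-coding genes, with no other peaks. The calls found 200 of 200 planted genes among 21887, with 0 extra. This placement fixed the outcome, so it checked the code and not the accuracy of calls on real peaks. Computation ran in Python 3.11.15 with pandas 2.3.3 and numpy 2.4.6, intervals came from scipy 1.17.1 and statsmodels 0.14.6, and plots from matplotlib 3.10.9.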

Additional observations from a re-analysis of the deposited data

How the results depend on the processing

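Restricted to fold 5 or more, the interval held 16 peaks, or 18.9 per Mb, covering 1.45% against 1.99%. The stretch between Dlk1 and Meg3 then held 0 peaks against 2, and 1 member, Dlk1, and 3 genes of the interval were marked against 3 and 8. With the summit inside the stretch it held 1 peak. Coverage was 1.94% without flanks and 2.15% with flanks of 50 kb. The share of protein-coding genes marked, 74.5%, became 73.8% at −log10 q of at least 5, 57.4% at fold 5 or more, 70.6% within 500 bp, 80.5% within 2500 bp, 72.3% with 200 bp shared and 70.5% with the summit inside. Of 44 alternative values 29 stayed close to the reported value or within its counting interval. Peaks joined over gaps of up to 1000 bp made 22 domains in the interval. Of these, 2 were wide, meaning among the widest 5% of all domains, here from 2002 bp. A join gap of 2000 bp, chosen after the data were seen, gave 3 wide domains against 2, from 2313 bp, with one of 4323 bp over the Meg3 start. Counts of fragments are small, so a pileup near 35 is known only within about its interval. No paired analysis was possible because the H3K4me3 library has no replicate.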

Other observations

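The 5 nearest protein-coding genes on each side of the cluster were looked up. Before it, Begain lay 374 kb away and was marked with 37 fragments and a fold of 6.93, followed by Wdr25 and Wars, which shared 1 end peak of 1401 bp with 43 fragments and a fold of 7.79. Slc25a29 was marked at 6.74 with 20 fragments, and Slc25a47 had no peak. After it, Ppp2r5c, a subunit gene of protein phosphatase 2A, lay 156 kb away with a fold of 7.14 and 47 fragments. Dync1h1, the dynein heavy chain gene, had 5.30 and the chaperone gene Hsp90aa1 5.68, while 1700001K19Rik had no peak. Wdr20 was unmarked at its ends but held 2 peaks, the nearest 1786 bp from its lower end. The higher in fold was 1751 bp wide, with 48 fragments and a fold of 5.97. Backgrounds at the marked neighbours ran from 2.11 to 6.54 fragments, below the 7.99 to 13.6 at the starts of Dlk1, Meg3 and Dio3.

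Relatives of the members differed in position of the mark. Dlk2, the homologue of Dlk1, had 51 fragments at an end and a fold of 5.63 (4.22 to 7.37). Dio2, the deiodinase that activates thyroid hormone, had 28 fragments and a fold of 7.13 (4.82 to 10.2) over a background of 3.07. Dio1 was unmarked at its ends, and its only peak, 840 bp wide and inside the gene, reached 33 fragments. The 113 distinct mature microRNA names of the interval had 104 seeds, and 9 seeds were shared by a pair of names, such as AUGUAAC of miR-379-3p and miR-411-3p.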
